A study of Nothobranchius furzeri with 8 samples.

Results

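The genes described here are kdm6bb, dot1l and epc1, 3 histone-modifying genes of the turquoise killifish Nothobranchius furzeri that are counted among the predicted targets of the microRNA miR-29. They are 3 of the 23546 genes in the tables, under the identifiers Nfu_g_1_005157, Nfu_g_1_018615 and Nfu_g_1_011250. They were chosen by their predicted targeting and by their measured difference in level between the 2 groups of fish, which was already known. Their levels and fold changes in that comparison are therefore given as a description, with no test. All 3 were among the 19536 genes that passed the filter on low counts.

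Histones carry chemical marks that are written, erased and read by enzymes and their partner proteins, and the marks set how accessible a gene is to transcription. Kdm6bb is a fish counterpart of mammalian KDM6B, a demethylase that removes methyl groups from H3K27, a mark laid down by polycomb repressive complexes in silenced genes. Dot1l is the methyltransferase that places the H3K79 mark over the body of transcribed genes, and it lacks the SET domain that most other histone lysine methyltransferases share. Epc1 is a scaffold subunit of the NuA4 (TIP60) acetyltransferase complex, which acetylates histones H4 and H2A. MiR-29 is a family of small RNAs that is abundant in adult neurons and that lowers the mRNA or protein of its targets by pairing with their 3′ ends.

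RNA was sequenced from the brains of 8 fish aged 12 weeks, 4 in each group. Wild-type fish were of the MZM-04/10p strain. The other 4 carried the transgene kif5a::miR-29sponge, called sponge-29, which expresses an mRNA for a green fluorescent protein with repeated binding sites that capture miR-29. The study describes the promoter as neuronal and the fish as F1 transgenics, and the libraries as biological replicates. By its account the transgenic line was made in the MZM-04/10 strain, which it used for all its N. furzeri experiments. The RNA came from brain tissue without sorting, so cells outside the reach of the promoter are included, and fewer cells of a type and less RNA per cell cannot be told apart. The level of miR-29 itself was not analysed here, so the sponge was not checked from these data. The direction of each fold change rests on the deposited counts and the genotypes in the labels. The study lists kdm6bb, dot1l and epc1 among the predicted targets with higher expression in sponge-29 fish. By the deposited counts and labels each of them was lower, which is opposite to that list. The reason for this difference was not tested, and the labels could not be checked from these data. Fish are numbered 1 to 4 within each group in the order of deposition, and a number does not pair a wild-type fish with a sponge-29 fish.

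Total counts were 21665735 to 24902251 in wild-type and 18014090 to 21081878 in sponge-29 libraries. These ranges did not overlap, and the exact two-sided permutation test gave p = 0.0286, the smallest value that 4 fish against 4 can give. Levels are given as CPM, counts of a gene per 1000000 reads of the TMM-scaled library, or as the authors' RPKM. The RPKM is scaled by the library total without TMM, and is divided by gene length. The 2 leading principal components took 27.4% and 26.1% of the variance. On the first, the sponge-29 fish were spread from −11.4 (fish 3) to 48.6 (fish 4), with fish 2 at 25.5. Wild-type fish 2 was at 27.3 on it, against −32.7 to −28.75 for the other wild-type fish. Wild-type fish 2 also stood apart at 64.0 on the second, against 4.22 to 12.9 for the other wild-type and −25.8 to −14.4 for the sponge-29 fish. Neuronal markers summed to 750 to 927 CPM in wild-type and 1083 to 1236 CPM in sponge-29 brains, with 6 called higher of the 7, out of 12 listed, that had an identifier. Mitotic genes summed to 280 to 387 and 139 to 212 CPM, with 9 called lower of the 12, out of 16 listed, that had one. The sums of glial markers overlapped between the groups (809 to 1173 and 920 to 1112 CPM), with 4 called higher of the 5, out of 15 listed, that had an identifier. The remaining one, bcan, had the highest level and was lower in sponge-29 fish (means 648 and 455 CPM), but was not called. In the 8 fits that each left out 1 fish, the call held in 8 for sox9a, in 3 for sox10 and in 1 each for KCNJ10 and SOX8. Sums of muscle and blood markers also overlapped (418 to 443 and 411 to 433 CPM), with 3 of 8 identifiers called higher and 4 lower. Only 6 of the 12 symbols on that list had an identifier: neb, tnnc1a, casq2, ryr3, myl12.2 and hbl4. The listed blood symbols hbaa1, hbba1, alas2 and cahz had none, and hbl4 is not a globin gene. The sum therefore does not report blood, and it is not read as a measure of muscle. Among its identifiers neb fell by 1.94 on the log2 scale and hbl4 rose by 0.99. Overlap of a sum thus does not mean that its single markers were unchanged. An identifier could be given a symbol only from the study's own tables, drawn up on these libraries. Of all 1415 identifiers with a symbol other than the 3 genes 43.1% were called higher and 45.1% lower, so these counts are descriptions. Calls also varied with gene length, with medians of 1365 bases for the neuronal and 5381 for the mitotic identifiers. Of identifiers with a symbol, 70.5% of those of 1083 to 1536 bases were called higher. Of those of 5268 to 6994 bases, 68% were called lower. The part of gene length in the marker counts was not tested. The part of these marker differences in the levels of the 3 genes was not tested.

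The H3K27 demethylase gene kdm6bb had the highest level of the 3 genes, in CPM and in RPKM, and its fitted level in sponge-29 brain was 0.710 times that in wild-type brain. In wild-type fish 1 to 4 its level was 535, 526, 511 and 535 CPM. In sponge-29 fish 1 to 4 it was 376, 348, 406 and 366 CPM. The groups did not overlap, and the highest sponge-29 fish lay 105 CPM below the lowest wild-type fish. Wild-type fish were close together and sponge-29 fish 3 was the highest of its group. The means were 527 ± 11.3 CPM (SD, n = 4) in wild-type and 374 ± 24.3 CPM (SD, n = 4) in sponge-29 fish, and the fitted log2 fold change was −0.49 (SE 0.06). Each wild-type value rested on 11799 to 12835 reads and each sponge-29 value on 6451 to 8038 reads.

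The H3K79 methyltransferase gene dot1l had the widest difference of the 3, with a fitted level in sponge-29 brain of 0.647 times that in wild-type brain. Its level was 120, 120, 103 and 117 CPM in wild-type fish 1 to 4. It was 82.0, 74.4, 76.7 and 64.7 CPM in sponge-29 fish 1 to 4. The highest sponge-29 value was under the lowest wild-type value, with a gap of 20.7 CPM. Wild-type fish 3 and sponge-29 fish 4 were the lowest of their groups. The means were 115 ± 8.32 CPM (SD, n = 4) and 74.4 ± 7.23 CPM (SD, n = 4), and the fitted log2 fold change was −0.63 (SE 0.09). The counts behind these values were 2579 to 2891 reads in wild-type and 1140 to 1690 reads in sponge-29 libraries.

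The NuA4 subunit gene epc1 had a fitted level in sponge-29 brain of 0.756 times that in wild-type brain, the narrowest difference of the 3. Wild-type fish 1 to 4 had 120, 117, 104 and 123 CPM. Sponge-29 fish 1 to 4 had 88.9, 86.4, 92.9 and 82.3 CPM. The groups were again separate, by 11.4 CPM, with wild-type fish 3 and sponge-29 fish 4 the lowest of their groups. The means were 116 ± 8.13 CPM (SD, n = 4) and 87.6 ± 4.47 CPM (SD, n = 4), and the fitted log2 fold change was −0.40 (SE 0.07). Counts were 2620 to 2883 reads in wild-type and 1450 to 1838 reads in sponge-29 libraries.

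**Figure D1:**
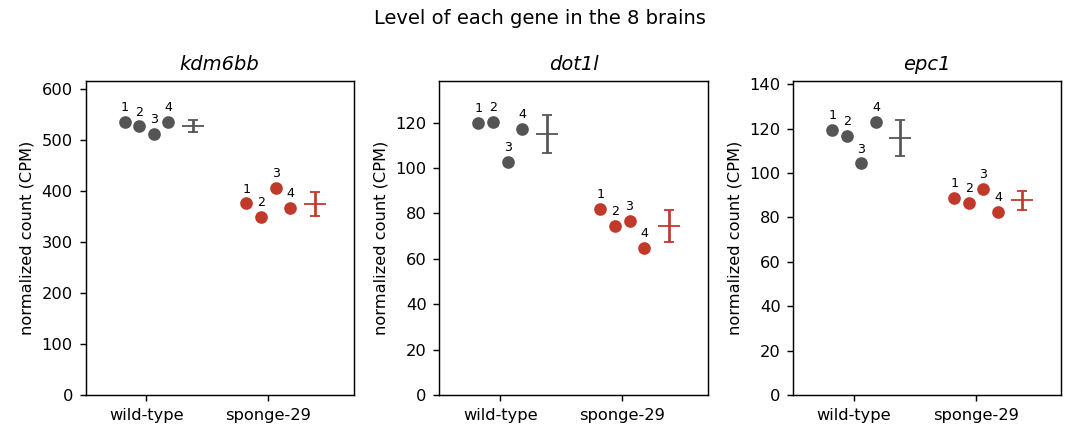
Level of kdm6bb, dot1l and epc1 in CPM (vertical axes, from 0) in each of the 4 wild-type (grey) and 4 sponge-29 (red) brains, numbered by fish, with the group mean and SD as bars. In each panel the 4 sponge-29 fish lie below the 4 wild-type fish, by 105 CPM for kdm6bb, 20.7 CPM for dot1l and 11.4 CPM for epc1.

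By these labels, all 3 genes lay lower in every sponge-29 fish than in every wild-type fish. Of all genes tested, 10.5% had the 4 sponge-29 fish below the 4 wild-type fish and 11.4% had them above, 21.9% in all. The quasi-likelihood test of edgeR called 12% of all genes at an adjusted p under 0.05, 5.84% (1140) lower and 6.15% (1201) higher in sponge-29, and the median log2 fold change of all genes was −0.01. These shares are printed as background, and nothing is read from the members' own count, since this comparison chose them.

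On the length-corrected scale the 3 genes were further apart. Kdm6bb stood at 103 ± 2.38 RPKM in wild-type and 71.9 ± 5.11 RPKM in sponge-29 fish, and its mean over all fish was above 96.3% of the genes tested. Epc1 stood at 13.9 ± 0.968 and 10.3 ± 0.612 RPKM, above 65.7% of genes. Dot1l stood at 10.8 ± 0.817 and 6.86 ± 0.681 RPKM, above 56.2% of genes. In order of RPKM the genes ran kdm6bb, epc1, dot1l in both groups, with no overlap between neighbours within a group.

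Within each fish, the RPKM of kdm6bb was 9.58 ± 0.554 times that of dot1l in wild-type and 10.5 ± 1.07 times in sponge-29 brains, and these ranges overlapped. The ratio of kdm6bb to epc1 was 7.46 ± 0.388 and 6.99 ± 0.300, again with overlap. The ratio of dot1l to epc1 was 0.780 ± 0.0258 in wild-type (0.748 to 0.810) and 0.667 ± 0.0451 in sponge-29 fish (0.618 to 0.724), with no overlap. The methyltransferase gene was thus lower relative to the NuA4 subunit gene in each sponge-29 fish than in each wild-type fish. This is a description of the same libraries that chose both genes. How often the ratios of other gene pairs separate the groups was not examined, so nothing further is read from this separation.

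The spread among fish of a group is given as a description, since a choice of genes by their call in this comparison favours a small spread. Kdm6bb had a coefficient of variation (CV) of 2.14% among wild-type and 6.48% among sponge-29 fish, where counting error alone gives 0.896% and 1.18%. For dot1l the CV was 7.23% and 9.71%, against a counting part of 1.92% and 2.65%. For epc1 it was 7.02% and 5.10%, against 1.91% and 2.44%. Counting error was thus the smaller part of the spread for each gene in each group. The biological CV estimated by edgeR was 8.03% for kdm6bb, 9.43% for epc1 and 10.8% for dot1l, and 0.717%, 5.45% and 15.9% of tested genes, in that order, had a lower one. EdgeR draws these estimates towards those of other genes. They can therefore exceed the observed CV, and they are not the spread of a gene on its own.

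After the group means were subtracted, the 3 genes were high or low in partly the same fish. Over the 8 libraries, Pearson's r of log2 CPM was 0.80 between dot1l and epc1 (Spearman's rho 0.52), 0.66 between kdm6bb and epc1 (rho 0.86) and 0.40 between kdm6bb and dot1l (rho 0.52). Wild-type fish 3 was the lowest of its group for all 3 genes. Sponge-29 fish 4 was the lowest for dot1l and epc1, and sponge-29 fish 2 for kdm6bb. The points share library depth and scaling, and these values are descriptions over 8 libraries.

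A further property of the libraries moved with the 3 genes. The slope of a library's log2 counts with gene length, relative to the mean library, was 0.0139 to 0.0266 per doubling of length in wild-type and −0.0369 to −0.00460 in sponge-29 libraries. Long genes were thus lower relative to short genes in each sponge-29 library than in each wild-type library (exact two-sided permutation test, p = 0.0286, the smallest possible). After the group means were subtracted, r with this slope over the 8 libraries was 0.79 for kdm6bb, 0.74 for dot1l and 0.73 for epc1 (rho 0.76, 0.71 and 0.76). The slope was fitted over all genes, so long genes in general tend to follow it. How many other long genes reach such values was not examined.

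**Figure D2:**
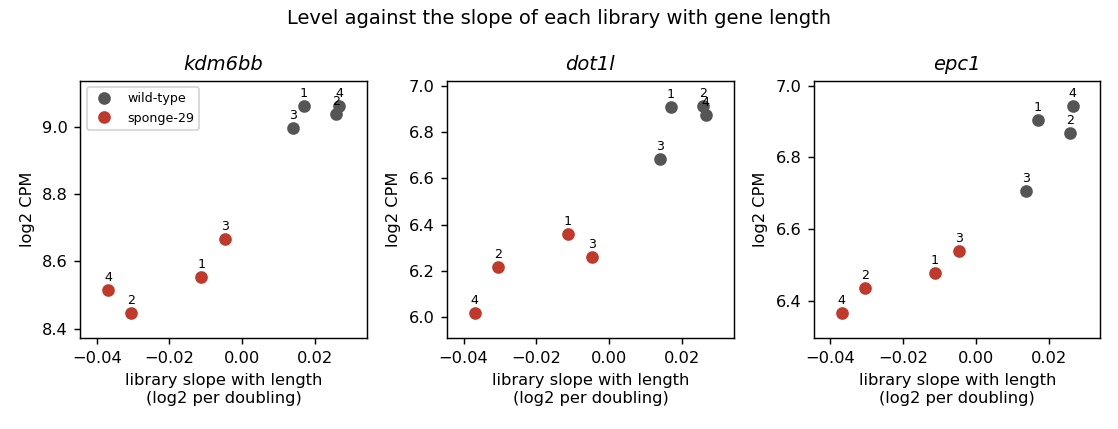
Log2 CPM of each gene (vertical axes) against the slope of each library's log2 counts with gene length (horizontal axes, log2 units per doubling of length) in the 4 wild-type (grey) and 4 sponge-29 (red) libraries, numbered by fish. The wild-type libraries lie at slopes of 0.0139 to 0.0266 and the sponge-29 libraries at −0.0369 to −0.00460, and each gene is lower in every sponge-29 than in every wild-type library.

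The 3 genes were long. The counts and RPKM together imply lengths of 5145 bases for kdm6bb, 8425 for epc1 and 10726 for dot1l, longer than 79.1%, 94.4% and 97.9% of the genes tested. Among 10 length classes of equal size, dot1l and epc1 fell in the longest (6995 to 88546 bases), where the median log2 fold change was −0.17 and 19.2% of genes were called lower. Kdm6bb fell in the eighth (4119 to 5266 bases), with a median of −0.04 and 7.27% called lower. In the shortest class the median was 0.10 and 1.13% were called lower.

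When the trend of each library with gene length was removed, the log2 fold change was −0.44 (SE 0.06) for kdm6bb, −0.46 (SE 0.08) for dot1l and −0.28 (SE 0.06) for epc1. Dot1l and epc1 thus came closer to 0 by more than 1 SE, while kdm6bb came closer by less than 1 SE, and kdm6bb and dot1l then had similar values. Whether the slope is a property of the RNA, of the library preparation or of the brains was not tested.

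**Figure D3:**
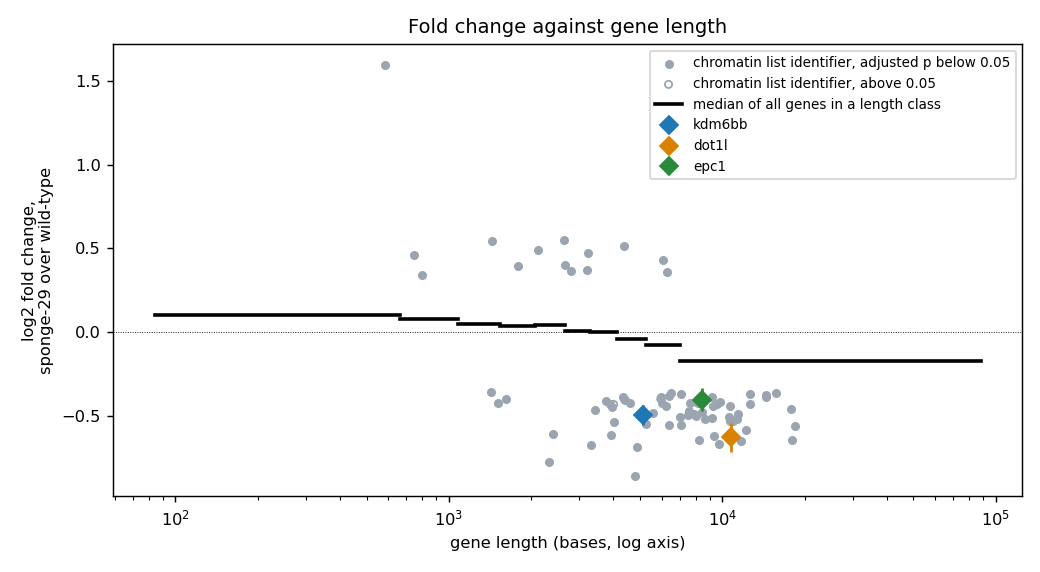
Log2 fold change of sponge-29 over wild-type (vertical axis) against gene length in bases (horizontal log axis) for kdm6bb, dot1l and epc1 (diamonds, bars are standard errors) and the 79 identifiers of the chromatin lists (dots, filled where the adjusted p was below 0.05), with the median of all genes in each of 10 length classes as black lines. The class medians run from 0.10 in the shortest to −0.17 in the longest class, and the 3 genes lie below the median of their class.

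Genes that act on the same mark as kdm6bb were also measured. Kdm6a, another H3K27 demethylase, was at 108 ± 9.72 CPM in wild-type and 82.0 ± 8.50 CPM in sponge-29 fish (SD, n = 4 each). It fell by 0.40 on the log2 scale (SE 0.09, edgeR quasi-likelihood adjusted p = 0.0290). That call held in only 2 of the 8 fits that left out 1 fish, and was lost with the length trend removed (−0.36, edgeR quasi-likelihood adjusted p = 0.0550). Ezh2, the polycomb methyltransferase that places the H3K27 mark, was at 37.1 ± 5.23 and 20.5 ± 2.96 CPM. It fell by 0.86 (SE 0.13, edgeR quasi-likelihood adjusted p = 0.0115), and the call held in 8 of 8 such fits. The mRNAs of the erasers kdm6bb and kdm6a and of the writer ezh2 were thus all lower in sponge-29 brain, as a description. Kdm6bb was chosen by this comparison, and kdm6a and ezh2 have symbols only from the study's lists of genes picked on these libraries. Of all identifiers with a symbol other than the 3 genes, 45.1% were called lower and 43.1% higher. A call was thus likely beforehand, and nothing is read from the shared direction about the mark. Further genes that act on this mark could not be identified here if their identifiers had no symbol. The RPKM of kdm6bb was 4.16 ± 0.322 times that of kdm6a in wild-type and 3.88 ± 0.195 times in sponge-29 brains, and 13.5 ± 2.04 and 17.3 ± 2.56 times that of ezh2, with overlap between the groups for both ratios. Ezh2 is also expressed in dividing cells, and the part of the mitotic genes, whose summed levels are given above, in its level was not tested.

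EP400, the remodelling ATPase of the complex that holds epc1, is covered by 2 identifiers that were counted separately. Nfu_g_1_009374 was at 129 ± 7.16 CPM in wild-type and 99.1 ± 9.95 CPM in sponge-29 fish, and fell by 0.38 on the log2 scale (SE 0.08, edgeR quasi-likelihood adjusted p = 0.0243). Nfu_g_1_013008 was at 81.2 ± 8.40 and 59.5 ± 8.72 CPM, and fell by 0.45 (SE 0.12, edgeR quasi-likelihood adjusted p = 0.0394). These calls held in 4 of 8 and 1 of 8 fits without 1 fish, and Nfu_g_1_013008 was not called with the length trend removed (−0.42, edgeR quasi-likelihood adjusted p = 0.0602). The ratio of epc1 to either identifier in RPKM overlapped between the groups. The EP400 symbol also came from genes picked on these libraries, so its calls are descriptions too.

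The rest of the histone and chromatin machinery was read from 7 lists with 133 symbols, of which 70 had at least 1 identifier, 79 identifiers in all. Of these, 63 were called lower, 14 higher and 2 were not called, with a median log2 fold change of −0.43. As their symbols also came from tables drawn up on these libraries, the lists are not independent evidence of a direction. Their counts stand beside the 45.1% called lower and 43.1% called higher among all identifiers with a symbol. Their median stands beside −0.36 among those same identifiers. That value is not typical of them, since they were split almost evenly by direction. Of all identifiers with a symbol other than the 3 genes, 51.5% had a negative log2 fold change, and of the chromatin identifiers 82.3%. The median of −0.01 over all genes is not a like background, since most genes tested have no symbol. The chromatin identifiers that fell were long, with a median of 7635 bases (1428 to 18481). Those that rose had a median of 2649.5 bases (585 to 6299). All 37 chromatin identifiers in the longest class fell, a class in which 83.1% of the 313 identifiers with a symbol were called lower and 8.63% higher. Median log2 fold changes in that class were −0.49 for the chromatin identifiers and −0.44 for all identifiers with a symbol. With the trend in gene length removed, 45 of the 79 were called lower and 12 higher, and the median was −0.35. Without wild-type fish 3, wild-type fish 4, sponge-29 fish 2 or sponge-29 fish 4, in turn, 44, 31, 32 and 46 of the 79 were called in place of 77.

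Among lysine methyltransferases, the enzyme class of dot1l, 14 of 15 identifiers fell and 1 rose (median log2 fold change −0.51, beside −0.63 for dot1l). Only 12 of the 24 listed symbols had an identifier. The count of each list stands beside the 45.1% called lower among all identifiers with a symbol, and does not describe the whole enzyme class. The largest falls after ezh2 were in mll3b at Nfu_g_1_009974 (−0.77), mll5 (−0.69) and mll3b at Nfu_g_1_007311 (−0.67). Mll3b encodes an H3K4 methyltransferase that acts at enhancers. The exception was setd7, which rose by 0.43 and encodes a monomethyltransferase with many substrates other than histones. In the 8 fits without 1 fish, the call of Nfu_g_1_009974 held in 5 and that of setd7 in 4, while those of mll5 and Nfu_g_1_007311 held in all 8.

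Among lysine demethylases, the class of kdm6bb, 4 of 5 identifiers fell and 1 rose (median −0.40, beside −0.49 for kdm6bb). Only 5 of the 18 listed symbols had an identifier, so most of the list was not seen. KDM2A, an H3K36 demethylase, fell by 0.43, kdm4b, which acts on H3K9, by 0.41, and JMJD1C by 0.37. Kdm5ba, an H3K4 demethylase, rose by 0.36. The calls of KDM2A and kdm5ba held in 8 of 8 fits without 1 fish, that of kdm4b in 6 and that of JMJD1C in 2. With the length trend removed JMJD1C was at −0.18 and was no longer called (edgeR quasi-likelihood adjusted p = 0.135).

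Among lysine acetyltransferases and their partners, the class nearest to epc1, 11 of 13 identifiers fell and 2 rose (median −0.49, beside −0.40 for epc1). Of the 24 listed symbols, 11 had an identifier. Msl2b, of the MSL complex, fell by 0.67. The general coactivators ep300b and crebbpa, which acetylate H3K27, fell by 0.65 and 0.53, and ncoa3, a nuclear receptor coactivator, by 0.61 at Nfu_g_1_001446. Kansl2, of the NSL complex, and ccdc101, a SAGA subunit also named SGF29, each rose by 0.40. The calls of msl2b and ep300b held in 8 of 8 fits without 1 fish and that of ncoa3 in 7, but that of crebbpa held in 5 and those of kansl2 and ccdc101 in 3 each.

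**Figure D4:**
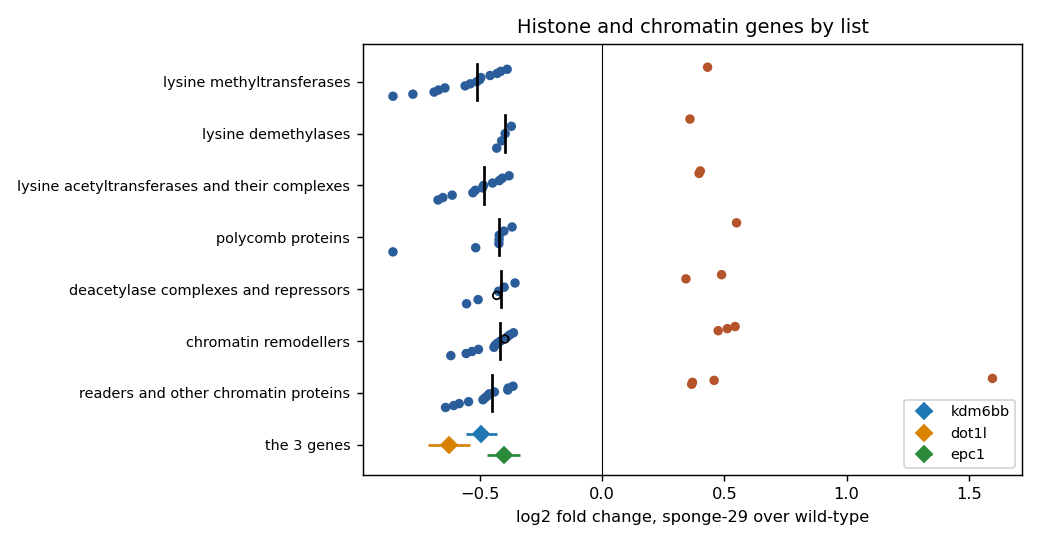
Log2 fold change of sponge-29 over wild-type (horizontal axis) for each identifier of the 7 chromatin lists (blue called lower, red called higher, open not called, black bar the list median) and for kdm6bb, dot1l and epc1 (diamonds, bars are standard errors). List medians run from −0.51 to −0.40 and each list holds 1 to 4 identifiers that rose.

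The remaining lists had the same majority. An identifier was found for 8 of 20 polycomb symbols and for 8 of 16 of deacetylase complexes and repressors. It was found for 13 of 18 remodeller symbols and for all 14 of readers and other chromatin proteins. Of 8 polycomb identifiers 7 fell and 1 rose (median −0.42). Besides ezh2, PHC3 fell by 0.52 and phc2b by 0.42, both of the canonical repressive complex 1, while bmi1a of the same complex rose by 0.55. The call of PHC3 held in 8 of 8 fits without 1 fish, that of phc2b in 4 and that of bmi1a in 1, and bmi1a was not called with the length trend removed (0.55, edgeR quasi-likelihood adjusted p = 0.0526). Of 8 identifiers of deacetylase complexes and repressors, 5 fell, 2 rose and 1 was not called (median −0.41). PHF12 fell by 0.55, chd4a, the ATPase of the NuRD complex, by 0.51 and sap130a, of the SIN3 complex, by 0.42. Hmg20b rose by 0.49 and mbd3b, of the NuRD complex, by 0.34. The calls of PHF12 and chd4a held in 8 of 8 fits without 1 fish, those of sap130a and mbd3b in 4 and that of hmg20b in 3, and sap130a was not called with the length trend removed (−0.35, edgeR quasi-likelihood adjusted p = 0.0513).

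Of 15 chromatin remodeller identifiers, 11 fell, 3 rose and 1 was not called (median −0.42). BPTF, the large subunit of the NURF complex, fell by 0.62 at Nfu_g_1_019785, baz1b by 0.56 and arid1b, of the BAF complex, by 0.53 at Nfu_g_1_015242. The BAF subunit genes bcl7bb and ss18 rose by 0.54 and 0.47, and actr8, of the INO80 complex, by 0.51. The calls of baz1b and actr8 held in 8 of 8 fits without 1 fish, that of BPTF in 6, those of arid1b and bcl7bb in 3 and that of ss18 in 2. Arid1b was not called with the length trend removed (−0.37, edgeR quasi-likelihood adjusted p = 0.0676). Of 16 readers and other chromatin proteins, 12 fell and 4 rose (median −0.45). Mbd1, which binds methylated DNA, fell by 0.61 and dido1 by 0.58 at Nfu_g_1_001644. H1f0, a linker histone, rose by 1.60, but its level was 91.6 to 272 CPM in wild-type and 261 to 709 CPM in sponge-29 fish, so the groups overlapped, and the call held in 2 of 8 fits without 1 fish and was lost with the length trend removed (1.54, edgeR quasi-likelihood adjusted p = 0.0502). Taf9 rose by 0.46, and hmgb1a and nap1l1, a histone chaperone, by 0.37 each. The calls of mbd1 and hmgb1a held in 8 of 8 fits without 1 fish, those of dido1 and nap1l1 in 7 and that of taf9 in 4.

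The differences of the 3 genes varied little with the fish that entered the fit. Leaving out 1 fish at a time gave −0.54 to −0.46 for kdm6bb, −0.68 to −0.57 for dot1l and −0.45 to −0.37 for epc1. Without wild-type fish 2, which stood apart on the second component, the values were −0.49, −0.60 and −0.40. In each of the 19 alternative analyses all 3 fold changes were below 0, as a description of the libraries that chose the genes.

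**Figure D5:**
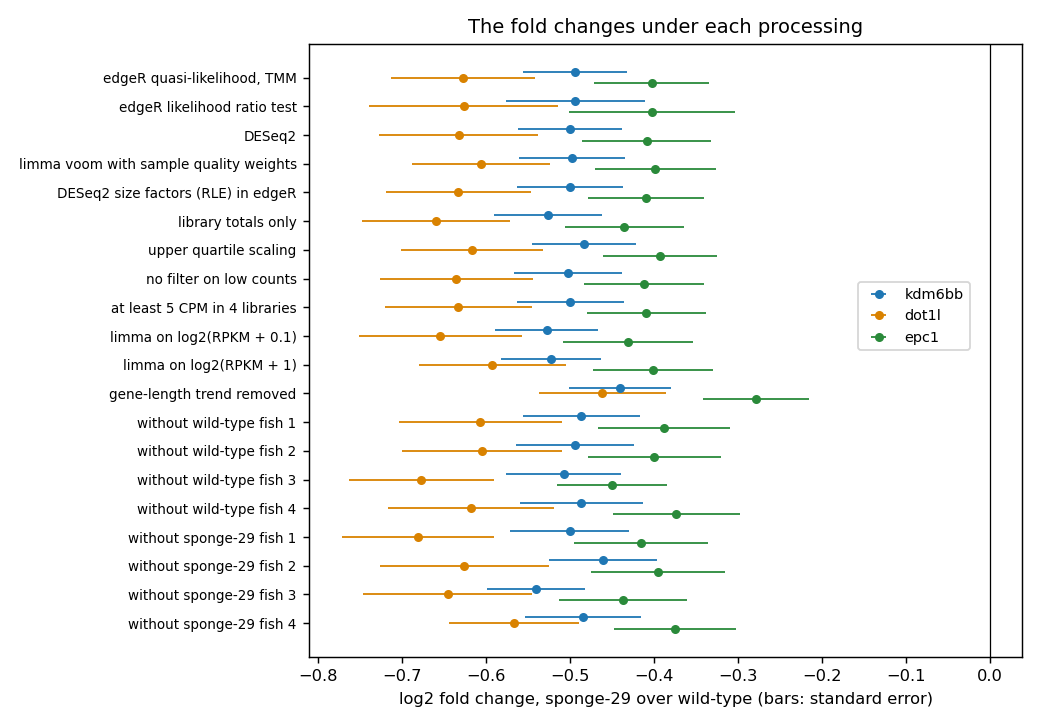
Log2 fold change of sponge-29 over wild-type (horizontal axis, bars are standard errors) of kdm6bb, dot1l and epc1 in the edgeR quasi-likelihood fit and in each of 19 alternatives. All values lie below 0, and the removal of the gene-length trend brings dot1l to −0.46 and epc1 to −0.28.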

How the data were processed

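TruSeq v2 libraries, a kit that does not mark strand, were read from one end. The submitters' processing notes name bcl2fastq 1.8.4, TopHat2 2.0.6 and featureCounts 1.4.3-p1. The study's methods name the N. furzeri genome as reference. The name of its build and the rules for strand and shared reads are not given in the sources used here, so genes that overlap others or have near-identical copies are uncertain. The authors deposited raw counts per gene and RPKM values (counts scaled by gene length and library total). No identifier matched the RefSeq gene table, so no coordinates are given. Symbols came from the study's additional files, which pair 1418 identifiers and cover genes picked on these libraries.

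Counts were fitted for all 8 libraries in edgeR 4.0.16 (R 4.3.3; quasi-likelihood test, filterByExpr with a minimum count of 10, TMM, Benjamini-Hochberg over 19536 genes, threshold 0.05). SE and adjusted p come from that fit unless another is named. For edgeR fits, SE is the absolute log2 fold change divided by the square root of the F statistic. In the likelihood ratio alternative, the likelihood ratio statistic took the place of F. This SE thus restates the test statistic and is not a separate estimate of spread. Gene length was derived from the counts and RPKM. Alternatives used limma 3.58.1, DESeq2 1.42.0, other scalings and filters, RPKM with pseudocounts of 0.1 and 1, removal of the length trend, and leaving out each library. The fitting steps were tested on simulated data.

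The 3 genes and the gene lists were chosen with earlier results of these data known. Besides the 3 genes, the text names kdm6a, ezh2 and EP400, per list up to 4 called identifiers with the largest absolute fold change and each called identifier against the list's majority, and per gene the 3 most correlated genes with a mean of at least 10 CPM. One result that this rule selects is not reported here. Total counts of 18014090 to 24902251 put the counting error of the 3 genes at 0.896% to 2.65%.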

Additional observations from a re-analysis of the deposited data

How the results depend on the processing

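The log2 fold changes of kdm6bb, dot1l and epc1 were below 0 in each of the 19 alternatives. Kdm6bb moved by less than the spread between fish in all of them. Dot1l moved to −0.46 and epc1 to −0.28 with the gene-length trend removed, and by less than that spread in the other 18 each. Leaving out 1 fish gave −0.54 to −0.46, −0.68 to −0.57 and −0.45 to −0.37.

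The number of genes called, 2341, was 3791 with DESeq2 and 1529 with the length trend removed. Leaving out 1 fish gave 427 (without wild-type fish 4) to 2125 (without wild-type fish 2). It was 441 without sponge-29 fish 2, 886 without wild-type fish 3, 990 without sponge-29 fish 4, 1153 without wild-type fish 1 and 1480 without sponge-29 fish 1. The split of 1201 higher and 1140 lower became 886 and 1428 with library totals in place of TMM, and 972 and 557 with the length trend removed. The cause of these changes was not tested. Of the 79 chromatin identifiers, 77 were called in the main analysis, 57 to 79 under the other alternatives and 31 to 72 without 1 fish.

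No paired analysis was possible because the labels give the 2 groups no shared replicate numbers. With 4 fish a group, depth was not the main limit for the 3 genes, since counting error was below the spread between fish.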

Other observations

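Among 1390 genes with a symbol and a mean of at least 10 CPM, those whose log2 CPM followed each gene most closely over the 8 libraries, once the group means were subtracted, were picked by Pearson's r. For kdm6bb they were rapgef6 (r 0.97), prom1a (0.96) and nrg2a (0.96). For dot1l they were sept9a (0.97), usp2a (0.96) and ssfa2 (0.95), and for epc1 MTTP (0.94), ZDHHC22 (0.93) and znf865 (0.93). Of these 9 genes, ssfa2 and ZDHHC22 were higher in sponge-29 than in wild-type brain (log2 fold change 0.47 with SE 0.12 and 0.44 with SE 0.10), opposite to dot1l and epc1. The other 7 were lower, from −0.64 for nrg2a to −0.36 for prom1a. High values are picked from many genes over few libraries, which share depth and scaling, and no test was made.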
